A study of Mus musculus with 6 samples.

Results

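Of the genes that build and remodel the actin cytoskeleton, 10 were followed in mouse bone marrow-derived dendritic cells grown with or without queuine. The 10 genes are Actb, Actg1, Tmsb4x, Tmsb10, Cfl1, Pfn1, Coro1a, Arpc1b, Capg and Lcp1. They were chosen by symbol, as the protein-coding loci of those names, and all 10 were found among the 57132 genes of the table. Bone marrow-derived dendritic cells are immune cells grown from marrow progenitors in the cytokine GM-CSF. Marrow donors were C57BL/6 females of 6 to 8 weeks, and the medium of every culture held GM-CSF (15 ng/mL) and serum that had been dialyzed. The control group (0Q) had 0 nM queuine in the medium and the other group (100Q) had 100 nM queuine, with 3 libraries in each. Both groups were fed on days 2 and 4, and RNA for mRNA-seq was taken on day 5. Cells insert queuine into the anticodon of the tRNAs that read Asn, Asp, His and Tyr codons, where it forms the nucleoside queuosine.

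Actin is a globular protein that polymerizes into filaments, and cells turn those filaments over by binding, severing, branching, capping and bundling them. Dendritic cells use this network to crawl, to take up antigen and to form contacts with T cells. Beta-thymosins hold free actin monomers in reserve, profilin feeds monomers to growing ends, cofilin cuts old filaments, the Arp2/3 complex starts branches, gelsolin relatives cap ends and plastins bundle filaments.

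None of the 10 genes differed between cultures with and without queuine beyond the spread of the libraries. In the edgeR quasi-likelihood fit over 10554 genes, 0 of the 10 passed an adjusted p of 0.05, where the percentage called among all tested genes was 0. None of the 10 (0 genes) had an unadjusted p under 0.05 either, against 309 of all tested genes (2.93%). Neither DESeq2 nor limma-voom called any (0 and 0 genes), and they had 356 and 310 genes below an unadjusted p of 0.05. The libraries of the groups overlapped for all 10 genes, whereas 8.27% of all tested genes had groups that did not overlap (4.42% with 100Q higher and 3.86% with 100Q lower). For 9 of the 10, the 95% confidence interval of the change lay within 1.5-fold in either direction, so a larger change lay outside the interval for those 9. The exception was Coro1a, whose interval ran from -39.9% to 63.2%.

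**Figure D1:**
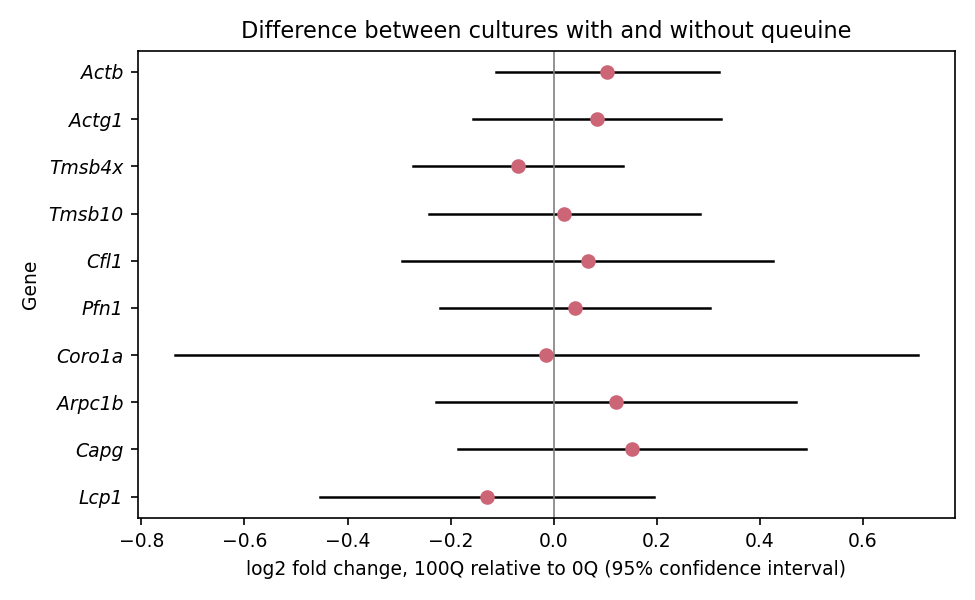
The horizontal axis is the log2 fold change of 100Q relative to 0Q from edgeR, with 1 row per gene, and the bars are 95% confidence intervals over 3 libraries per group. All 10 intervals cross 0, the estimates run from -0.13 for Lcp1 to 0.15 for Capg, and Coro1a has the widest bar.

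Total counts ran from 3675931 to 6755398 per 0Q library and from 4484793 to 19386617 per 100Q library. The cultures are labelled as dendritic cells, and the dendritic cell markers summed to 1006 to 1172 CPM (counts scaled to library size with TMM factors) in 0Q and 1036 to 1169.6 CPM in 100Q. The dendritic lineage genes Flt3 and Zbtb46 were low, with Flt3 at means of 1.12 CPM without queuine and 3.33 CPM with it and Zbtb46 at 1.17 and 2.46 CPM. Their log2 fold changes were 1.48 (SE 0.93) and 1.02 (SE 0.91), each with an edgeR adjusted p of 0.999. Of the 10 dendritic cell markers, 6 estimates were above 0 and 4 below, and 0 were called by edgeR. Itgax and Irf4 were higher in 100Q without overlap (log2 fold changes 0.51 and 0.32, unadjusted p = 0.0174 and 0.373 by edgeR). Cd86 was lower in 100Q without overlap (-0.94, unadjusted p = 0.0218 by edgeR). Itgax, Irf4 and Cd86 were singled out after their values were seen. Neutrophil markers summed to 16879 to 19798 CPM without queuine and 14077 to 17157 CPM with it, and 0 of their 8 genes were called by edgeR. All 8 estimates were below 0 (median -0.23 on the log2 scale), and Camp, Ly6g and Ngp, singled out after their values were seen, were lower in 100Q without overlap (unadjusted p = 0.0062, 0.0236 and 0.0351 by edgeR). The part of such cells in the values below was not tested. The macrophage list summed to 1263 to 1473 CPM without queuine and 1100.1 to 1485 CPM with it. Platelet markers, mostly Pf4, summed to 386 to 456 CPM without queuine and 350.4 to 368 CPM with it, and erythroid markers to 56.9 to 60.7 against 48.4 to 54.6 CPM, so that neither pair of ranges overlapped. Their part was not tested. Lists for mast cells, lymphocytes and fibroblasts each summed to under 150 CPM in every library. Mcpt4, Tpsb2, Cma1, Cd3e, Klf1 and Des were at 0 in all libraries. Since the 10 genes are active in many blood cells, a change in cell makeup and a change in RNA per cell cannot be told apart in such bulk RNA. 0Q replicate 1 stood apart, with 0.244% of its counts in ribosomal RNA genes against 0.120% to 0.141% in the others. For the 10 genes, the log2 fold change without it is given where its sign turns.

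Levels between genes were compared per kilobase of the canonical transcript. Tmsb4x was highest at 8452 CPM per kb, followed by Actb at 2524, Actg1 at 697 and Lcp1 at 494. Below them came Tmsb10 at 357, Pfn1 at 158, Capg at 104, Arpc1b at 76.5, Cfl1 at 47.7 and Coro1a at 10.01. Each gene exceeded the next in this order in all 6 libraries, apart from Actg1 over Lcp1, which held in 5 of 6. With the union of all exons as the length, 6 of the 10 kept their rank. In CPM, 4 of the 10 were at 1000 CPM or more, 5 lay from 100 to 1000 and Coro1a was alone below 100. The description as abundant therefore does not hold for Coro1a, which ranked 3010 of 9554 tested protein-coding genes per kb, where Tmsb4x ranked 9 and Actb 37. The 10 together took 1.51% ± 0.0552 of all counts in 0Q and 1.55% ± 0.0606 with queuine (SD, n = 3 each). Actb and Tmsb4x alone made up 69.0% to 73.3% of that share.

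**Figure D2:**
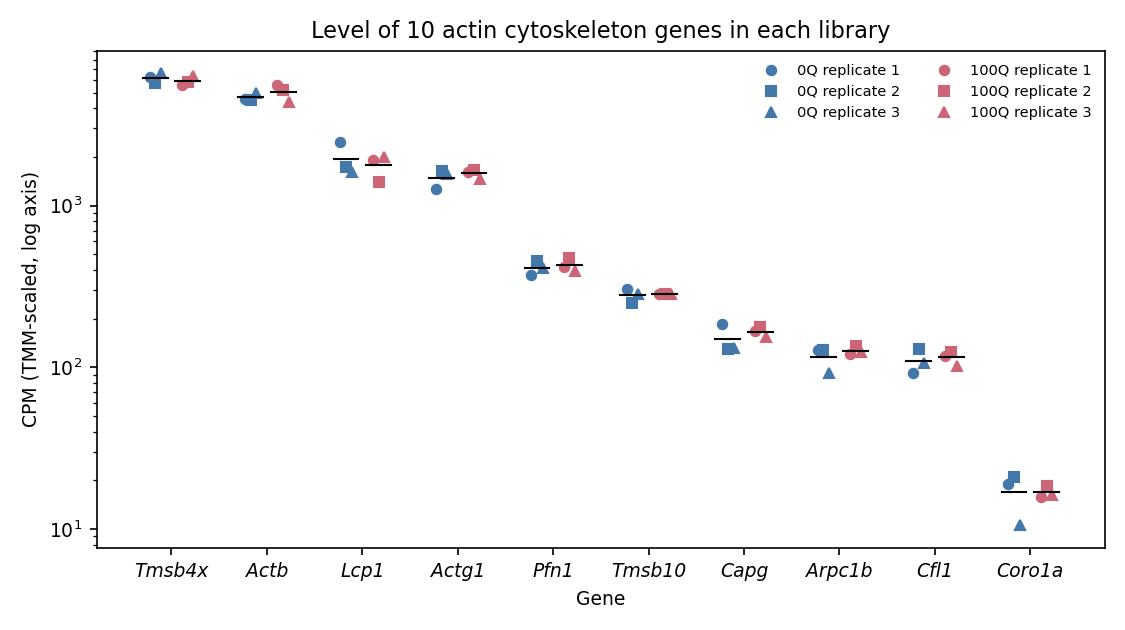
Each point is the level of 1 gene in 1 library in CPM on a log axis, by group (0Q or 100Q). The points of 0Q and 100Q overlap for each gene and black bars are group means, with Tmsb4x and Actb at the top and Coro1a near 16.8 CPM at the bottom.

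The cytoplasmic actins came first in the order of roles. Actb (ENSMUSG00000029580, GRCm39 chromosome 5, 142888870 to 142892509, minus strand) encodes beta-actin and Actg1 (ENSMUSG00000062825, chromosome 11, 120236512 to 120239617, minus strand) gamma-actin. Their proteins are nearly the same, and their coding sequences matched at 1000 of 1128 bases (88.7%). The first 90 bases of the consensus coding sequences are shown 5′ to 3′ because the genes differ there in codons read by queuosine tRNAs; capitals mark the codons for Asn, Asp, His and Tyr.
Actb: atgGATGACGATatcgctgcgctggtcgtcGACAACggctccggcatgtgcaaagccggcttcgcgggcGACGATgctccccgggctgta
Actg1: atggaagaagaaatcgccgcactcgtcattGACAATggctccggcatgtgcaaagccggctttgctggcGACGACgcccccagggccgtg

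In the stretch shown, Actb has 7 such codons and Actg1 has 4. Over the whole coding sequence, 53 positions hold such a codon in both genes. The codon was the same at 38 of them, ended in C in Actb and T in Actg1 at 9, and the reverse at 6.

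Actb was measured at 4549, 4522 and 4940.0 CPM in 0Q replicates 1 to 3 and at 5529, 5150.1 and 4379.9 CPM in 100Q replicates 1 to 3. The 100Q group held both the highest and the lowest library, and the groups overlapped. The means were 4671 ± 234 and 5019.6 ± 586 CPM (SD, n = 3 each), a log2 fold change of 0.10 (SE 0.10, edgeR adjusted p = 0.999). Actg1 was measured at 1266, 1644 and 1559 CPM in 0Q and at 1622, 1667 and 1451 CPM in 100Q. Its lowest library was 0Q replicate 1 and the other 5 lay close together. The log2 fold change was 0.08 (SE 0.11, edgeR adjusted p = 0.999) and was -0.02 without 0Q replicate 1. Beta-actin made up 78.3% ± 2.28 of the pair per kb in 0Q and 78.4% ± 1.08 with queuine (SD, n = 3 each, exact permutation p = 1). The muscle actins Acta1, Actc1 and Actg2 had 0 counts in every library.

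Among the monomer-binding genes, Tmsb4x (ENSMUSG00000049775, chromosome X, 165990089 to 165992311, minus strand) and Tmsb10 (ENSMUSG00000079523, chromosome 6, 72934330 to 72935737, minus strand) encode the beta-thymosins that sequester actin. Both coding sequences are short and are shown whole on GRCm39, 5′ to 3′, with capitals marking the Asn and Asp codons read by queuosine tRNAs.
Tmsb4x: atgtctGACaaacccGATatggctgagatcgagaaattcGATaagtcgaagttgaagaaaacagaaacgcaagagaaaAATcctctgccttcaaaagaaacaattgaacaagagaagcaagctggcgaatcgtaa
Tmsb10: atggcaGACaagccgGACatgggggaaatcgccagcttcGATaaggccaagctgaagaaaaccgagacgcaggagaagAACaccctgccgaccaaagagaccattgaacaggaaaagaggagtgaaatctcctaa

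The 4 codons stand at the same places in both genes. The codon is the same at 2 of them, and the other 2 end in T in Tmsb4x and in C in Tmsb10. The sequences matched at 95 of 135 bases (70.4%).

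Tmsb4x was measured at 6238, 5703 and 6571 CPM in 0Q and at 5544, 5772 and 6329 CPM in 100Q. The highest library was 0Q replicate 3 and the lowest 100Q replicate 1, with the others mixed between them. Its log2 fold change was -0.07 (SE 0.10, edgeR adjusted p = 0.999). Tmsb10 was measured at 304, 250.1 and 284 CPM in 0Q and at 283, 283 and 284 CPM in 100Q. The 3 libraries with queuine were nearly equal and lay inside the range of the 3 without it. On the log2 scale the change was 0.02 (SE 0.13, edgeR adjusted p = 0.999), and -0.06 without 0Q replicate 2. Tmsb4x made up 96.1% of the pair per kb in 0Q and 95.8% in 100Q (n = 3 each, exact permutation p = 0.2).

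Pfn1 (ENSMUSG00000018293, chromosome 11, 70540882 to 70545976, minus strand) encodes profilin, which delivers actin monomers to growing filament ends. It was measured at 375, 456 and 411 CPM in 0Q and at 414, 472 and 393 CPM in 100Q. 0Q replicate 1 was lowest and 100Q replicate 2 highest, and the groups overlapped. This gave a log2 fold change of 0.04 (SE 0.12, edgeR adjusted p = 0.999). It was -0.04 without 100Q replicate 2 and -0.02 without 0Q replicate 1. Another profilin gene, Pfn2, had at most 23 counts in a library, and Pfn1 made up over 99% of the Pfn1/Pfn2 pair in every library.

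Cfl1 (ENSMUSG00000056201, chromosome 19, 5540483 to 5545229, plus strand) encodes cofilin 1, which severs filaments. Its libraries had 91.9, 130.4 and 107 CPM in 0Q and 118, 125 and 102.5 in 100Q. The lowest and the highest were both in 0Q, so the queuine libraries fell inside that range. The fitted log2 fold change was 0.07 (SE 0.17, edgeR adjusted p = 0.999) and -0.05 without 0Q replicate 1. Dstn, the related severing protein destrin, was the larger partner per kb, and Cfl1 made up 17.6% ± 4.60 of that pair in 0Q and 21.8% ± 5.20 with queuine (SD, n = 3 each, exact permutation p = 0.4). Against Cfl2, the muscle-type cofilin, Cfl1 made up 87.6% in 0Q and 90.7% in 100Q (n = 3 each, exact permutation p = 0.5).

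Coro1a (ENSMUSG00000030707, chromosome 7, 126298942 to 126307022, minus strand) encodes coronin 1A, the coronin of blood cells, which acts on filament disassembly and Arp2/3. It was measured at 19.1, 20.9 and 10.6 CPM in 0Q and at 15.8, 18.5 and 16.2 CPM in 100Q. Both the highest and the lowest library were in 0Q, and both group means were 16.8 CPM. The log2 fold change was -0.01 (SE 0.34, edgeR adjusted p = 0.999), and it was 0.08 without 0Q replicate 1. Leaving out 1 library at a time moved it from -0.25 to 0.16. Coro1a overlaps Bola2 on the opposite strand, which had 3444 counts over the 6 libraries against 764 for Coro1a, so its value is uncertain where the counting did not use strand. Per kb, Coro1a made up 73.2% ± 20.8 of the pair with Coro1b in 0Q and 62.8% ± 11.9 with queuine (SD, n = 3 each, exact permutation p = 0.7).

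Arpc1b (ENSMUSG00000029622, chromosome 5, 145051025 to 145067515, plus strand) encodes the subunit of the Arp2/3 complex that is typical of blood cells, and Arpc1a encodes the alternative subunit. Arpc1b had 128, 128 and 91.9 CPM in 0Q and 121, 135 and 124 in 100Q. 0Q replicate 3 was lowest, and the other 5 libraries lay within a narrow band. Its log2 fold change was 0.12 (SE 0.17, edgeR adjusted p = 0.999), and -0.02 without 0Q replicate 3. Arpc1a had 150.3, 111 and 112 CPM in 0Q and 84.2, 82.1 and 113 in 100Q. All but 100Q replicate 3 of the queuine libraries lay below the 0Q libraries, and the estimate was -0.41 on the log2 scale (SE 0.18, edgeR adjusted p = 0.999, unadjusted p = 0.0361). The share of Arpc1b within the pair per kb was 47.2%, 54.8% and 46.4% in 0Q and 60.1%, 63.4% and 53.5% in 100Q. Its mean was 9.55 points higher in 100Q, with 100Q replicate 3 below the highest 0Q library (exact permutation p = 0.2, 0.9 after Benjamini-Hochberg adjustment over the 9 pairs).

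**Figure D3:**
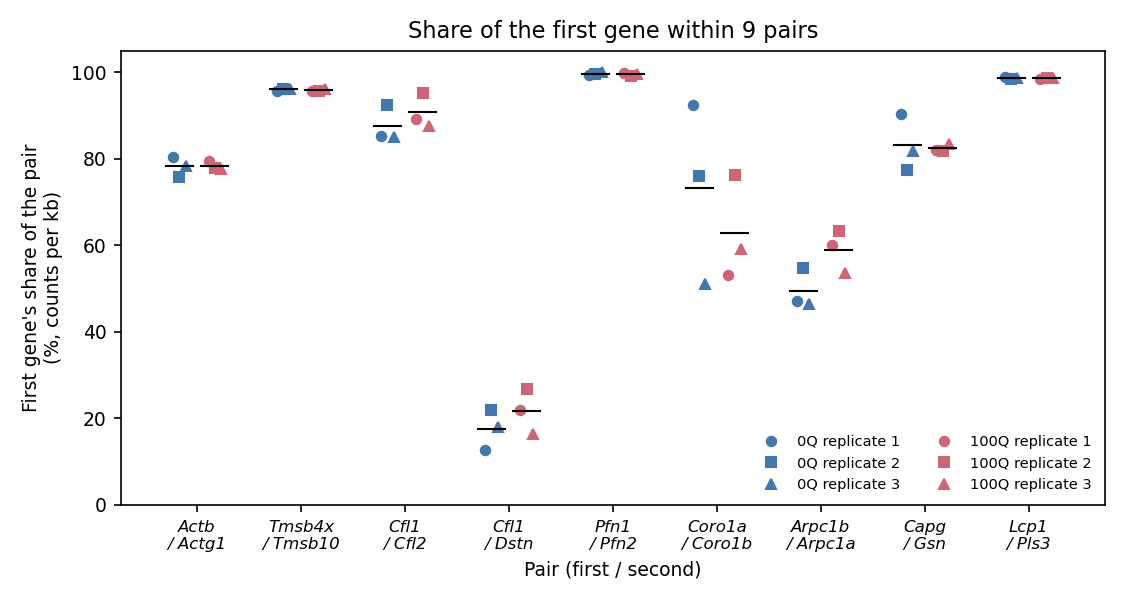
Each column is 1 pair of related genes, and each point is the percentage of the pair's level per kb held by the first gene in 1 library, with bars for group means. The Arpc1b share ran from 46.4% to 54.8% in 0Q and from 53.5% to 63.4% in 100Q, with overlap, and Coro1a/Coro1b spread most.

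Capg (ENSMUSG00000056737, chromosome 6, 72514955 to 72539970, plus strand) encodes a gelsolin relative that caps filament ends without severing them. It had 185, 130.4 and 132 CPM in 0Q and 168, 176 and 154 in 100Q. 0Q replicate 1 was highest of all and the other 0Q libraries were the lowest. On the log2 scale the change was 0.15 (SE 0.16, edgeR adjusted p = 0.999), and 0.34 without 0Q replicate 1, where the unadjusted p was 0.0408 and the adjusted p 0.999. Against Gsn, gelsolin itself, Capg made up 83.2% of the pair per kb in 0Q and 82.5% in 100Q (n = 3 each, exact permutation p = 1).

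Lcp1 (ENSMUSG00000021998, chromosome 14, 75367978 to 75468289, plus strand) encodes L-plastin, the filament-bundling plastin of blood cells. It was measured at 2473, 1735 and 1608 CPM in 0Q and at 1912, 1392 and 2011 CPM in 100Q. 0Q replicate 1 was highest and 100Q replicate 2 lowest, and the groups overlapped. This gave a log2 fold change of -0.13 (SE 0.15, edgeR adjusted p = 0.999), 0.09 without 0Q replicate 1 and 0.01 without 100Q replicate 2. Lcp1 made up over 98% of the pair with Pls3, the plastin of solid tissues, in every library (exact permutation p = 0.5).

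The spread over all 6 libraries, as SD in percent of the mean, was smallest for Tmsb10 (6.17%), Tmsb4x (6.78%), Pfn1 (8.84%), Actb (9.13%) and Actg1 (9.97%). It was largest for Coro1a (21.5%) and Lcp1 (20.2%), and 8 of the 10 genes had libraries within 1.5-fold of each other. 0Q replicate 1 was the lowest library for 3 genes (Actg1, Cfl1 and Pfn1) and the highest for 3 (Tmsb10, Capg and Lcp1).

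**Figure D4:**
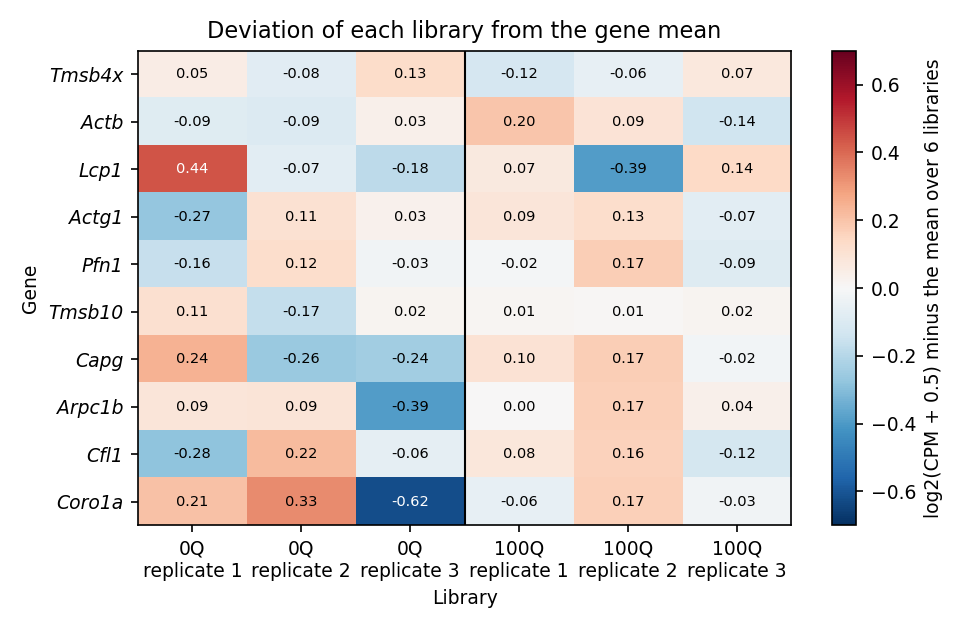
Each cell of the heat map gives log2(CPM + 0.5) of 1 gene in 1 library minus that gene's mean over the 6 libraries, red above and blue below it. The strongest colours are Coro1a in 0Q replicate 3 (-0.62) and Lcp1 in 0Q replicate 1 (0.44), and no gene has all 3 libraries of each group on opposite sides.

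Estimates were above 0 for 7 of the 10 genes and below it for 3, and their median log2 fold change was 0.05. Over all tested genes 50.0% were above 0 and 50.0% below, with a median of 0.00. Among the 1328 tested genes whose level reached 100 CPM, 427 were above 0 and the median was -0.06. A wider list of 140 actin genes, the 10 included, was read from the same fit. Of these 120 were tested, 74 had estimates above 0 and 46 below, the median was 0.06 and 0 passed. At an unadjusted p under 0.05 there were 3, Arpc1a, Marcks and Tpm1, against 2.93% of all tested genes. Groups did not overlap for 8 of the 120, against 8.27% of all tested genes.

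By role, monomer-binding genes had 4 estimates above 0 and 2 below, and the Arp2/3 subunits 5 and 4. Severing and recycling genes had 7 and 7, and capping and gelsolin-family genes 7 and 4. Bundling and crosslinking genes had 8 above and 5 below, and the myosin and tropomyosin group 8 and 4. Among nucleation promoting factors there were 10 above and 5 below, and among formins and Ena/VASP proteins 7 and 5. Membrane linkers had 7 above and 2 below. None of these genes passed the test in either direction.

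**Figure D5:**
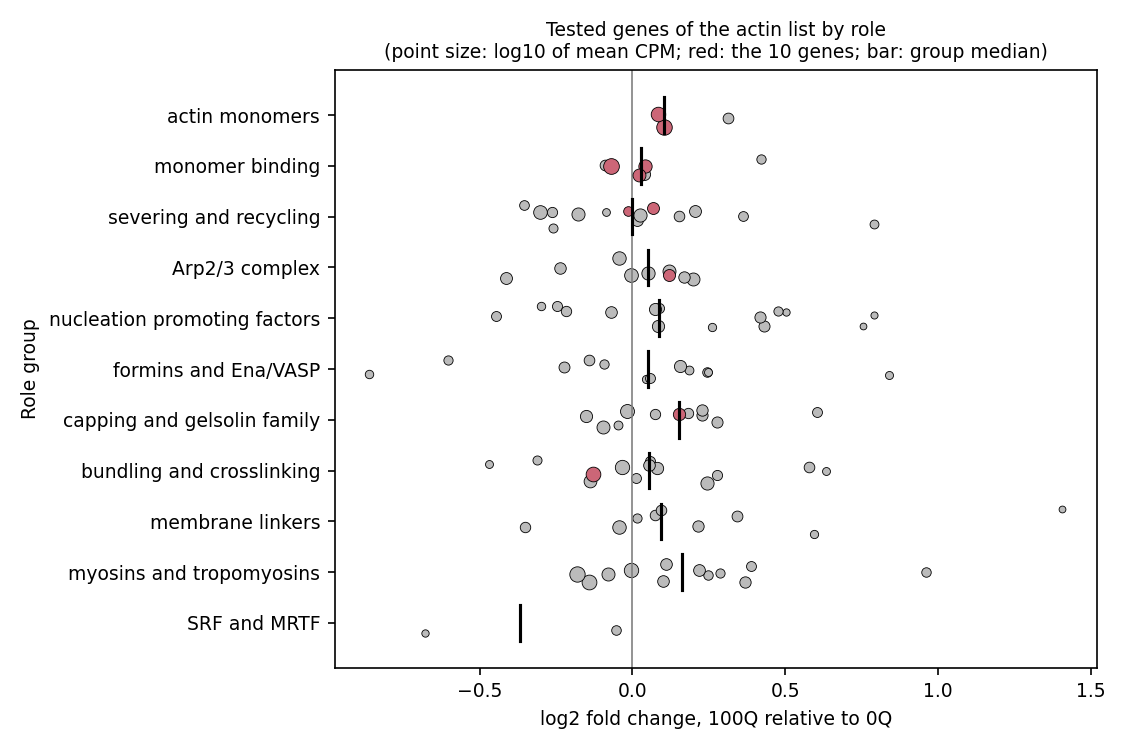
Each point is the log2 fold change of 100Q relative to 0Q for 1 tested gene of the roles described, sized by the log10 of its mean CPM, with the 10 genes in red and bars for role medians. Points of each role shown fall on both sides of 0, except the 3 tested actin genes, which are above it, and Mrtfa and Mrtfb, which are below it.

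Of the most abundant other gene in each role, Myl6, a myosin light chain, averaged 4118 ± 381 CPM without queuine and 3635 ± 307 CPM with it (SD, n = 3 each). Tagln2, an actin-binding protein of the transgelin family, averaged 1263 ± 99.7 CPM without queuine against 1233 ± 89.4 CPM. Capza2, a subunit of the capping protein, averaged 831 ± 95.3 against 821 ± 149 CPM. The groups overlapped for all 3, as they did for Arpc3, Gmfg, Msn, Cap1, Brk1 and Vasp. Without 0Q replicate 1 the log2 fold change of Tagln2 went from -0.03 to 0.03 and that of Capza2 from -0.02 to 0.08. Msn went from -0.05 to 0.10 and Cap1 from 0.04 to -0.11 in the same fit.

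Tpm1, a tropomyosin that coats filaments, had 14.2, 9.58 and 5.75 CPM in 0Q and 24.97, 16.0 and 17.3 in 100Q. The 3 libraries with queuine were above the 3 without it, with a log2 fold change of 0.96 (SE 0.39, edgeR adjusted p = 0.999, unadjusted p = 0.0229). Marcks, which ties actin to the membrane, had 24.9, 30.6 and 34.7 CPM in 0Q and 37.5, 44.0 and 52.6 in 100Q, again without overlap (log2 fold change 0.58, SE 0.25, edgeR adjusted p = 0.999, unadjusted p = 0.0299). Acta2, smooth muscle actin, averaged 36.3 ± 5.65 CPM without queuine and 45.1 ± 1.80 CPM with it, again without overlap. Acta2 made up most of the fibroblast and smooth muscle marker list, which summed to 34.5 to 44.9 CPM without queuine and 43.7 to 50.2 CPM with it, and the part of such cells was not tested. Twf2, Abi1, Washc1 and Myo1e were also higher without overlap in 100Q, and Fmnl1, a formin, was lower at 4.87 ± 1.46 CPM against 8.84 ± 1.98 CPM (SD, n = 3 each). Washc1 and Myo1e were named after their values were seen. Tpm1, Marcks, Twf2, Abi1 and Fmnl1 were picked by their values too, as the other gene with the smallest p in their roles. Of the actin-sensing transcription factors, Mrtfb averaged 16.3 ± 9.84 CPM without queuine and 15.8 ± 2.30 CPM with it, and Mrtfa 3.73 ± 0.645 against 2.28 ± 1.41 CPM. Srf, their DNA-binding partner, was too low to test, with 1 to 45 counts per library. The CArG box, the motif bound by Srf, was searched on both strands in the 250 bases before each RefSeq start site (GRCm38.p6). It was found for Actg1 alone among the 9 genes with an entry, for 9 of 114 genes of the wider list and for 1.62% of 27025 genes. Actb had no entry, so its promoter was not searched.

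The codons read by queuosine tRNAs end in T or C. The 10 coding sequences held 443 of them in their canonical transcripts, of which 151 ended in T and 292 in C, so that 34.1% ended in T. Gene by gene, the median percentage over 19422 genes with at least 20 such codons was 43.0%, a different measure from the pooled 34.1%. Pfn1 (4 of 18), Actb (14 of 56), Actg1 (15 of 53) and Capg (14 of 49) were C-rich, at 22.2% to 28.6% ending in T. With 18 codons, Pfn1 fell short of the 20 required for genes in that median. Cfl1 was above the median, with 11 of 23 (47.8%), and Lcp1 (36.8%), Coro1a (36.1%) and Arpc1b (42.1%) lay below it. Tmsb4x had 3 of 4 ending in T and Tmsb10 had 2 of 8 (1 of 4 in the consensus sequence shown above), too few to rank. Weighted by transcript level, the 10 genes supplied 1.34% to 1.53% of all such codons in a library, 1.57% to 1.85% of those ending in C and 1.05% to 1.14% of those ending in T. These shares describe mRNA, and translation was not measured in these libraries.

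Reads from near copies could shift some values. Near copies were sequences at least 90% identical over at least 20% of a transcript. Their share of the summed counts of copies and gene was 1.88% to 2.27% for Actb (Lrrc58). The share was 2.94% to 5.25% for Pfn1 (Rnf167, which overlaps it on the opposite strand) and 0.670% to 1.97% for Tmsb10 (chiefly Tmsb10b). For Cfl1 the share was 0.260% to 1.45%, and for Actg1, Arpc1b and Lcp1 it stayed under 0.15% in every library. Arpc1b overlaps Pdap1 and Cfl1 overlaps Snx32 on the opposite strand, with 799.9 and 159 counts over the 6 libraries.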

How the data were processed

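Expected counts per gene for 6 mRNA-seq libraries were deposited by the authors in 1 table, 1 column per library and not normalized. Per the submitters' processing notes, FastQC, STAR and RSEM were run on mm39 (GRCm39); versions, annotation release and strandedness were not named in any source used. Gene names for the 57132 identifiers came from GENCODE mouse release 39 (502 unmatched), and 0 columns were unused. RSEM divides ambiguous reads, so 5.51% to 10.5% of values were not whole, and values were rounded for testing. The test was edgeR 4.0.16 (R 4.3.3) with filterByExpr, TMM, robust glmQLFit and glmQLFTest, adjusted by Benjamini-Hochberg over all tested genes at 0.05. Its steps had first been tested on simulated data. A simulated 1.5-fold change was called for 26.3% of altered genes at 100 CPM or more and 2.67% of those below. For a 2-fold change these were 96.7% and 20.7%. A 1.5-fold change could therefore often go uncalled on either side of 100 CPM, and a 2-fold change below it. Alternatives were DESeq2 1.42.0, voom of limma 3.58.1, other scalings, filters and lengths, thinning of the deepest library, removal of a length trend, a replicate block and each library left out. CPM used TMM-scaled totals over tested genes. Shares within pairs had exact two-sided permutation tests, which cannot go below 0.1 with 3 against 3. Coding sequences came from GENCODE and promoters from RefSeq. The members and lists were chosen with earlier results of these data known. Named were the members, the most abundant and the smallest-p gene of each role, the pair partners, Srf, Mrtfa and Mrtfb. Some genes that this rule names are not reported here. Separate animals are not stated for the wells, and the p-values therefore cover the spread of these cultures alone, part of which may be technical. Reads carry no molecular identifiers.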

Additional observations from a re-analysis of the deposited data

How the results depend on the processing

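None of the 10 genes was called under any alternative run. Counting 1 estimate per gene and fit, signs changed in 12 of 60 estimates with a library left out and in 3 of 80 with other settings. With the replicate block the sign changed in 1 of 10 estimates (Coro1a, from -0.01 to 0.05). Over all genes, edgeR called 0 to 2 when a library was left out, reaching 2 without 0Q replicate 1 (Gm46542 and Gvin2) and 1 when 0Q replicate 2 was dropped (Gm2446), none of them on the actin list. Without a filter on low counts 0 were called and 839 had an unadjusted p under 0.05. The difference in share (100Q minus 0Q, in points) changed sign when a library was left out for Capg/Gsn (-0.72, from -3.62 to 2.86), Actb/Actg1 (0.13, from -1.05 to 1.23) and Pfn1/Pfn2 (-0.08, from -0.261 to 0.0929). The cause was not tested. With the union of exons as length, 6 of the 10 genes kept their rank. With the length trend removed from each library, the Tmsb4x log2 fold change was 0.00 and 9 of the 10 estimates were above 0. Using the replicate number as a block called 0 genes (421 below an unadjusted p of 0.05), and changed no call. For libraries that share a number, the deviations of log CPM from each gene's group mean correlated at 0.03, 0.08 and -0.01. The numbers were therefore not taken as pairing. Consensus coding sequences and their lengths were added after seeing the data, and gave 33.6% of codons ending in T. Depth limits Coro1a most, at 38 to 306 counts per library.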
